A study of Homo sapiens with 15 samples.

Results

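Contractile apparatus genes of smooth muscle, 10 in all, were followed across 5 kinds of culture: ACTA2, ACTG2, TPM1, TPM2, TAGLN, CNN1, CALD1, LMOD1, MYL9 and MYLK. They were taken by gene name from a table of 15790 genes, and all 10 were present. The cultures were, first, fHDF/TERT166 cells alone, an immortalized line of foreskin dermal fibroblasts. The others held RPTEC/TERT1 cells, immortalized epithelium of the renal proximal tubule: with the fibroblasts on LN/FN-silk (silk co-cultures), alone on LN/FN-silk (silk monocultures), with the fibroblasts on LN/PC (LN/PC co-cultures) and alone on LN/PC (LN/PC monocultures). LN/FN-silk is a membrane of recombinant spider silk. Each group had 3 libraries, and each sample pooled several membranes. Cells were seeded at 140000 epithelial cells and 14000 fibroblasts per cm2 and cultured for 14 days. Silk membranes were harvested by scraping and LN/PC membranes by cutting them out, so effects of membrane and of harvest cannot be told apart. The fibroblasts were taken from the well bottom; the protocol calls them basolateral, the titles monocultures. Each cell type is 1 line, so nothing here bears on variation between donors.

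In smooth muscle, thick filaments of myosin pull on thin filaments built of actin and coated with tropomyosin. Calcium and calmodulin activate myosin light chain kinase, which phosphorylates the regulatory light chain and so starts contraction, while calponin and caldesmon hold the thin filament in check. Serum response factor, acting with the myocardin family at a DNA element called the CArG box, drives many of these genes. Fibroblasts take up part of the programme, above all the smooth muscle actin encoded by ACTA2, when they become contractile myofibroblasts, as in kidney fibrosis. Several of the genes are also transcribed as shorter or non-muscle products in other cells, and a table of gene totals cannot separate these.

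All values are normalized counts recovered from the deposited log2 values, and they were not divided by gene length, so levels are compared between groups and never between genes. Each library held about 8.73 to 14.5 assigned reads in units of 1e6, estimated from the spacing of low values. Most markers matched the labelled lines. In fibroblast libraries KRT18, CDH16 and PAX2, which mark tubular epithelium, were listed at 0, and in both kinds of epithelial monoculture COL3A1 and FAP, which mark fibroblasts, were listed at 0. ANPEP and CUBN, also on the tubular list, went the other way, with 11041 and 151 normalized counts in fibroblasts. ANPEP had 2023 in silk and 1488 in LN/PC monocultures, and CUBN 61.9 in silk and 41.0 in LN/PC monocultures. A sample of bulk RNA cannot tell fewer cells of a type from less RNA per cell. Nothing in the labels ties replicates to separate cultures, so the p-values speak of the spread among these 15 libraries, part of which may be technical.

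The thin filament genes differed most in kind. ACTA2, smooth muscle alpha-actin, stood at 2334, 2133 and 2615 normalized counts in the 3 fibroblast libraries. It stood at 313, 303 and 249.5 in silk co-cultures and 269, 295 and 212 in silk monocultures. In LN/PC co-cultures it stood at 1772, 1208 and 1619, against 390.0, 309 and 344 in LN/PC monocultures. Every LN/PC co-culture library thus lay above every other epithelial library and below every fibroblast library, and the silk co-cultures overlapped the silk monocultures. TPM2, beta-tropomyosin, had the same order at the top, with 8585, 8529.7 and 9539.7 in fibroblasts, and 4768, 2735 and 4410.5 in LN/PC co-cultures against 424, 773 and 412 in LN/PC monocultures. Its silk co-cultures (582, 642 and 457) overlapped the silk monocultures (589, 564 and 627).

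TPM1, the alpha-tropomyosin gene, ran the other way. It was lowest in fibroblasts, at 3241, 3290.0 and 3544. It stood at 8082, 7670.5 and 6717 in silk co-cultures against 7928, 8412 and 9453 in silk monocultures, and at 7889, 7194 and 6105 in LN/PC co-cultures against 8914, 4020.5 and 10302 in LN/PC monocultures. The LN/PC monocultures overlapped each other epithelial group, and the second LN/PC monoculture library was far below its 2 partners. ACTG2, the gamma-actin of gut smooth muscle, was scarce everywhere. It averaged 24.3 ± 9.46 normalized counts in fibroblasts, 12.1 ± 2.07 in silk co-cultures, 5.80 ± 1.80 in the epithelium alone on silk, 19.3 ± 15.9 in LN/PC co-cultures and 7.13 ± 4.86 in LN/PC monocultures (SD, n = 3 each). The LN/PC co-cultures overlapped every other group, and their mean rested on the third library (37.5, beside 7.70 and 12.8).

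Of the genes for proteins that sit on the thin filament, TAGLN, which encodes the actin-bundling protein transgelin (SM22), stood at 7348, 6872 and 8309 in fibroblasts. It stood at 4031, 2241 and 3325 in LN/PC co-cultures against 24.2, 28.1 and 96.4 in LN/PC monocultures. Silk co-cultures (74.7, 32.5 and 48.0) overlapped silk monocultures (45.7, 148 and 53.2), and both overlapped the LN/PC monocultures. CALD1, caldesmon, was highest in fibroblasts, at 21148, 22199.7 and 24630.2. It stood at 6601, 4027 and 5509 in LN/PC co-cultures against 1385, 1018 and 1874 in LN/PC monocultures. Its silk co-cultures, at 1768, 1664 and 1557, lay above the silk monocultures, at 955, 1300.5 and 1317, without overlap.

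LMOD1, leiomodin, which starts new actin filaments in smooth muscle, was scarce in the epithelial groups other than the LN/PC co-cultures. It stood at 544, 493 and 467 in fibroblasts, and at 40.4, 16.2 and 45.7 in LN/PC co-cultures against 0, 2.99 and 2.67 in LN/PC monocultures. Its silk co-culture values (0.884, 0.921 and 0.884) each stand for about 1 read, and its silk monocultures reached 3.80 at most. CNN1, basic calponin, stood at 26.5, 17.1 and 14.8 in fibroblasts, 0, 1.89 and 15.4 in LN/PC co-cultures, and 0 in all LN/PC monocultures. In silk co-cultures it was detected in 1 library (2.05) and in silk monocultures in 1 library (0.544), each with about 1 or 2 reads. The LN/PC co-culture mean therefore rests on the third library.

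The myosin side split in the same way as the tropomyosins. MYL9, the smooth muscle regulatory light chain, stood at 2924, 2733 and 2902 in fibroblasts, and at 961, 529.8 and 1129 in LN/PC co-cultures against 9.84, 13.5 and 13.8 in LN/PC monocultures. Silk co-cultures (14.2, 1.97 and 21.5) and silk monocultures (21.1, 8.31 and 2.07) overlapped. MYLK, the kinase that acts on the light chain, was lowest in fibroblasts, at 647, 943 and 1016. It stood at 7734, 9078 and 8640.4 in silk co-cultures against 7328, 7825 and 7752 in silk monocultures, and at 6394, 6932 and 4261 in LN/PC co-cultures against 8838, 3850.4 and 8526.5 in LN/PC monocultures. MYLK was thus high and MYL9 scarce in both epithelial monocultures and in the silk co-cultures, while the LN/PC co-cultures held both. The second LN/PC monoculture library again stood apart.

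**Figure D1:**
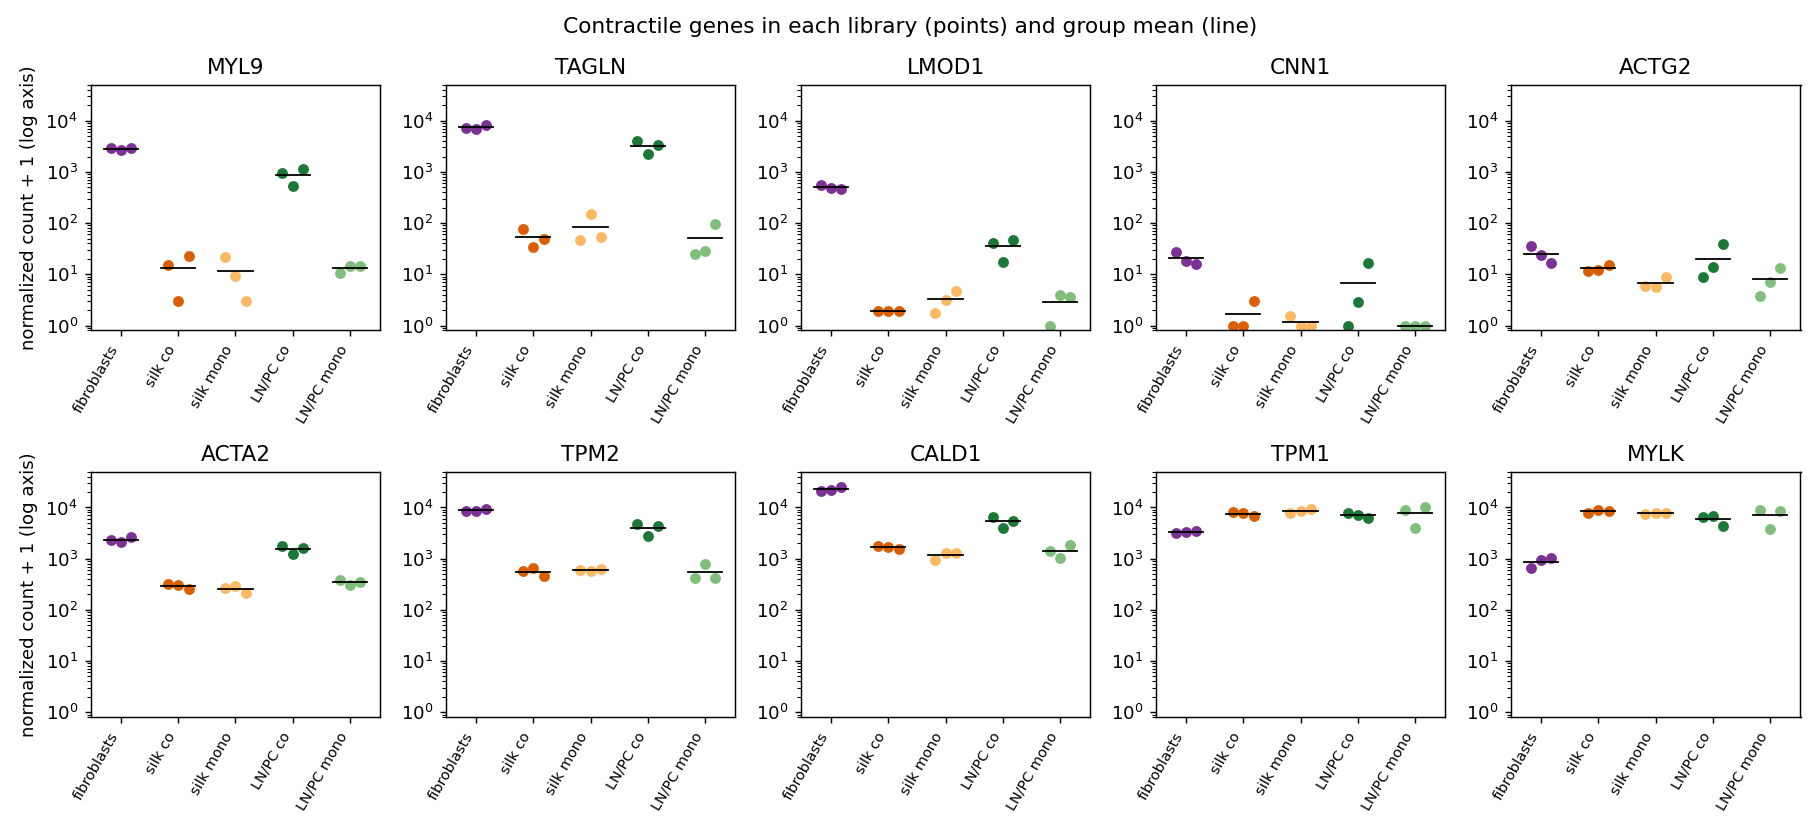
Normalized count plus 1 (log axis) of each contractile gene in each of the 15 libraries, by group (points are libraries, lines group means, n = 3 each). In 6 panels (MYL9, TAGLN, LMOD1, ACTA2, TPM2 and CALD1) the LN/PC co-cultures stand between the fibroblasts and the other epithelial groups, while TPM1 and MYLK are lowest in fibroblasts.

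Promoter windows of 250 bases before to 50 after the annotated start were read from RefSeq (GRCh38.p14) for the members, and 8 of the 10 had an entry. TAGLN and MYL9 were not matched. A CArG box, searched on both strands in the strict form CCWWWWWWGG (W for A or T), was found in 2 of the 13 member windows, against 1.29% of all 35116 windows. The motif CATTCC, known as a binding site of TEAD factors, on either strand, was found in 5 of the 13 member windows and in 14.0% of all windows. The 250 upstream bases are shown for the 2 members with a CArG box (capitals), to show where the boxes lie in a gene that was scarce in every group, ACTG2, and in a gene that was lowest in fibroblasts, MYLK. The ACTG2 stretch is at chr2:73892758-73893007, plus strand, and the MYLK stretch at chr3:123620549-123620798, minus strand, both 5′ to 3′.
ACTG2: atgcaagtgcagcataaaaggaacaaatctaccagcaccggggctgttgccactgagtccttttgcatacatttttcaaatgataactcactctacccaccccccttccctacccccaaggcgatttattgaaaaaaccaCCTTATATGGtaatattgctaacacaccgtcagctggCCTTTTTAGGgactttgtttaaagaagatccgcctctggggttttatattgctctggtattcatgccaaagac
MYLK: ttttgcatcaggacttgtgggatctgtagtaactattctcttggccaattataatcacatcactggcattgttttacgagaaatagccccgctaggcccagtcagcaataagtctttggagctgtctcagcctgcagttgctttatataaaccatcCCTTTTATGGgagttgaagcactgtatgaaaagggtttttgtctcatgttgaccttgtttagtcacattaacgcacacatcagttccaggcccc
The ACTG2 boxes begin 110 and 73 bases before the start, and the MYLK box begins 94 bases before it. The MYLK window lies inside the gene, 264 kb from its 5′ end in the GENCODE 29 annotation. An internal MYLK promoter is known to drive telokin, a short smooth muscle product of the gene, and the gene totals analysed here do not separate telokin from the kinase. A match is a description of these letters only, and none was found in the windows of ACTA2, TPM1, TPM2, CNN1, LMOD1 or CALD1. A box that departs from the strict form, or lies outside the window, would be missed, so these genes cannot be said to lack one.

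Fibroblasts were compared with the mean of the 2 epithelial monocultures, to show which cell line transcribes each gene. In fibroblasts 8 of the 10 members were higher and 2 were lower, by limma on log2(normalized count + 1). P-values were adjusted over 14502 genes (Benjamini-Hochberg), and those under 0.05 after adjustment were called. Over all genes tested 28% were higher and 30.3% lower, so the background is wide. The largest differences were in MYL9 (log2 difference 8.06 ± 0.48, SE), LMOD1 (7.54 ± 0.47) and TAGLN (7.10 ± 0.44), with adjusted p of 4.28e-08, 6.74e-08 and 6.89e-08. CALD1 was higher by 4.15 ± 0.19, TPM2 by 4.01 ± 0.18 and ACTA2 by 2.98 ± 0.14 (adjusted p of at most 5.93e-09 for the 3). MYLK was lower, at -3.06 ± 0.25 (adjusted p = 8.08e-07), and TPM1 was lower, at -1.22 ± 0.25 (adjusted p = 0.00136). In none of the 8 higher members did a fibroblast library overlap an epithelial monoculture library. The share of all genes that separate in this way was not counted, so this is a description only. ACTG2 was higher by 1.80 ± 0.41 (adjusted p = 0.00286), but its lowest fibroblast library (15.9) and highest LN/PC monoculture library (12.4) were close. LMOD1 and CNN1 passed the filter on low values only through the fibroblasts, so both had to differ. ACTG2 also passed it only with the fibroblasts, as 12.4 was its only epithelial monoculture value to reach 10. Its call was therefore favoured by the filter. For CNN1, from its approximate reads, 57 against 1, the ratio was 124-fold, with a 95% exact interval of 21.4 to 4977 that covers counting error only. Log2 differences of the scarce genes depend on the added constant, and with 10 in place of 1 that of LMOD1 was 5.41.

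The LN/PC co-cultures were compared with the LN/PC monocultures, to show what the added fibroblasts changed. Of the 9 members tested 6 were higher and none was lower, over a background of 7.8% higher and 4.72% lower among 14433 genes. The median log2 difference of the 9 was 2.13, against -0.04 over all genes. TAGLN was higher by 6.23 ± 0.49 (log2, SE; adjusted p = 1.30e-07), MYL9 by 5.97 ± 0.69 (1.01e-05) and TPM2 by 2.91 ± 0.24 (2.11e-07). ACTA2 was higher by 2.13 ± 0.18 (adjusted p = 3.90e-07) and CALD1 by 1.93 ± 0.22 (6.92e-06). LMOD1 was higher by 3.71 ± 0.66 (adjusted p = 0.000931), and it passed the filter only through the LN/PC co-cultures, so it had to differ. ACTG2 (1.22 ± 0.58, adjusted p = 0.191), TPM1 (-0.03 ± 0.26, 0.956) and MYLK (-0.21 ± 0.26, 0.663) did not pass. Leaving out the second LN/PC monoculture library put MYLK past the threshold, lower by 0.60 (adjusted p = 0.0470). CNN1 was not tested; its mean was at least 1.97-fold higher in LN/PC co-cultures, against a floor of 3 reads in each LN/PC monoculture library, a value that rests on 1 library.

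The silk co-cultures were compared with the silk monocultures in the same way, and none of the 9 members tested passed, over a background of 3.78% called in either direction. By the unadjusted limma p under 0.05, CALD1 was the only member, with a log2 difference of 0.50 ± 0.22 (unadjusted p = 0.0354, adjusted p = 0.247). The members that were higher in LN/PC co-cultures gave, besides CALD1, 0.17 ± 0.18 for ACTA2, -0.53 ± 0.49 for TAGLN, 0.23 ± 0.69 for MYL9, -0.65 ± 0.66 for LMOD1 and -0.10 ± 0.24 for TPM2. MYL9 gave 1.11 or -0.51 depending on which library was left out, so its direction on silk is not determined.

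**Figure D2:**
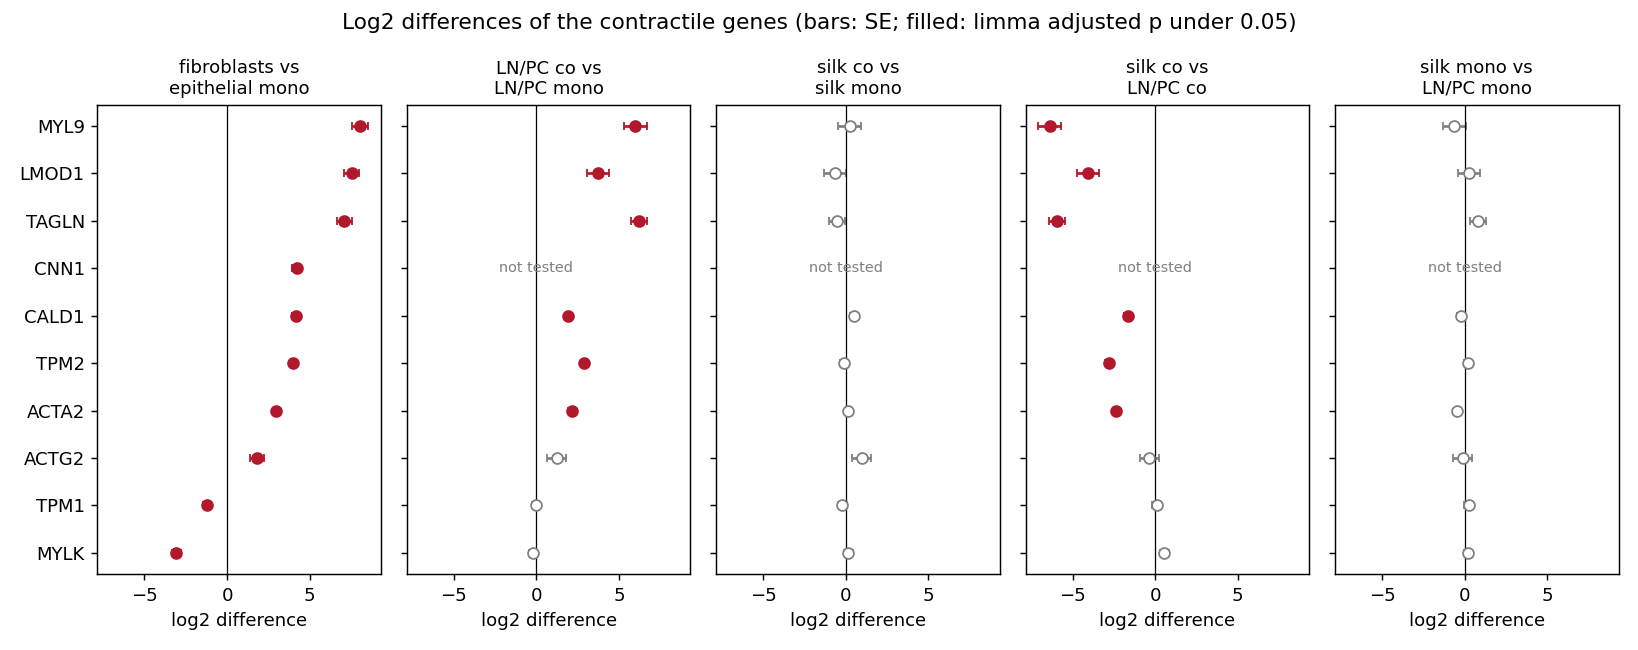
Log2 difference of each contractile gene in 5 comparisons (points, with SE bars; filled where the limma adjusted p is under 0.05). Filled points number 10 for fibroblasts against epithelial monocultures, 6 for LN/PC co-cultures against their monocultures, 6 for silk against LN/PC co-cultures, and none in the other 2 panels.

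The 2 co-cultures were then compared with each other, and the 2 monocultures with each other. In silk co-cultures 6 of the 9 members tested were lower than in LN/PC co-cultures and none was higher, over a background of 17.6% lower and 18.5% higher. The log2 differences were -6.37 ± 0.69 for MYL9, -5.96 ± 0.49 for TAGLN, -2.80 ± 0.24 for TPM2, -2.39 ± 0.18 for ACTA2 and -1.67 ± 0.22 for CALD1, with adjusted p of at most 2.69e-05. LMOD1, tested only because the LN/PC co-cultures passed the filter, had to be lower, with about 3 reads in silk co-cultures and 99 on LN/PC. The ratio of LN/PC to silk co-cultures was 36.8-fold, with a 95% exact interval of 12.2 to 182. MYLK, at 0.56 ± 0.26 (adjusted p = 0.107), did not pass, though it was called with the 6 libraries fitted alone (0.56, adjusted p = 0.0200) and with equal library totals (0.70, adjusted p = 0.0203). Between silk and LN/PC monocultures none of the 9 passed, over a background of 11.7% called. ACTA2 had the only unadjusted limma p under 0.05 (-0.43 ± 0.18, unadjusted p = 0.0308, adjusted p = 0.131).

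The interaction, the co-culture difference on silk minus that on LN/PC, tests the difference between the membranes itself. It was below 0 for 6 of the 9 members and above 0 for none among the calls, over a background of 4.59% lower and 3.15% higher. The values were -6.76 ± 0.69 for TAGLN, -5.74 ± 0.98 for MYL9, -4.36 ± 0.93 for LMOD1, -3.00 ± 0.34 for TPM2, -1.96 ± 0.26 for ACTA2 and -1.44 ± 0.31 for CALD1, with adjusted p of at most 0.00694. The value of LMOD1 was fixed by the filter, which it passed only through the LN/PC co-cultures. TPM1, ACTG2 and MYLK did not pass (-0.17 ± 0.37, -0.25 ± 0.82 and 0.36 ± 0.37). All of these comparisons share libraries, so their calls are not separate evidence.

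Fibroblast RNA moved with the contractile genes. It was estimated over 111 fibroblast-restricted genes, whose fibroblast mean reached 1000 and exceeded both epithelial monocultures 100-fold or more, with the contractile genes left out. In a co-culture library, the share was the median of their excess over monocultures on the same membrane, set against the excess in fibroblasts taken as 100%. It was 13.9%, 9.81% and 15.1% in the LN/PC co-cultures and 0.0222%, 0% and 0.113% in those on silk. By this estimate all LN/PC co-cultures carried over 9% fibroblast RNA, and the silk co-cultures close to none. Summing the restricted genes instead gave 14.5% to 25.8% in the LN/PC co-cultures. Both estimates assume that fibroblasts on the membrane express the restricted genes at the level of fibroblasts grown alone, which was not tested. The 11 fibroblast markers summed to 157763 to 239654 normalized counts in LN/PC co-cultures against 24531 to 28774 in LN/PC monocultures, and to 59066 to 62947 in silk co-cultures against 34593 to 39404 in silk monocultures. On silk nearly all of the sum was VIM, which the epithelium also expresses, at 60934 in silk co-cultures against 37285 in silk monocultures. Of 10 smooth muscle and pericyte markers 4 were measured, and these summed to 352 to 488 in LN/PC co-cultures against 131 to 215 in LN/PC monocultures. CSPG4 (233 against 2.09) and NOTCH3 (63.2 against 0.956) were higher in mean in the LN/PC co-cultures, and MCAM (102 against 142) and RGS5 (8.76 against 22.1) were lower in mean. The part of either in the contractile differences was not tested. The library with the lowest share, the second, was also the lowest of its group in ACTA2, TAGLN, MYL9, TPM2, CALD1 and LMOD1. The share was highest in the third library, as were MYL9 and LMOD1, while ACTA2, TAGLN, TPM2 and CALD1 were highest in the first. These genes share libraries and scaling, so they are not separate evidence.

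The 6 genes did not follow that share equally. On the same scale, the excess in LN/PC co-cultures was 58.9 ± 14.5% of that in fibroblasts for ACTA2, 42.2 ± 12.1% for TAGLN, 41.1 ± 13.0% for TPM2 and 30.3 ± 10.9% for MYL9 (SD, n = 3). It was 18.6 ± 6.09% for CALD1 and 6.44 ± 3.15% for LMOD1. The 111 restricted genes themselves ran widely, with quartiles of 7.09% and 21.7% around a median of 13.2% and a highest value of 69.3%. ACTA2 lay above 108 of them, TAGLN and TPM2 above 103, MYL9 above 96, CALD1 above 76 and LMOD1 above 25. The first 4 were above the upper quartile of the restricted genes and LMOD1 was below the lower one. The restricted genes were chosen for high values in these same fibroblast libraries, and only 1 contractile gene met their rule. The placing thus sets unlike genes side by side and is a description only.

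**Figure D3:**
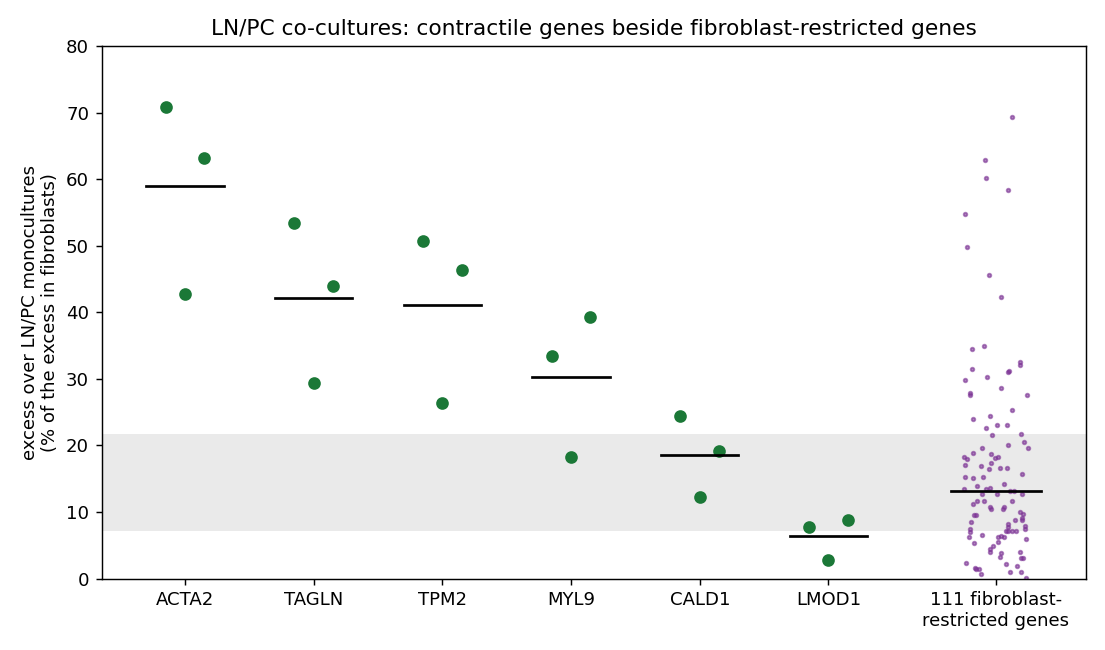
Excess over LN/PC monocultures in the 3 LN/PC co-culture libraries, in percent of the fibroblast excess, for 6 contractile genes (points are libraries, lines means) and for 111 fibroblast-restricted genes (each point the mean of 3 libraries, line the median, grey band the quartiles). ACTA2 averages 58.9% and LMOD1 6.44%, against a median of 13.2%.

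Divided by each library's share, the excess gives a level per unit of fibroblast RNA, on the assumption that the epithelial part kept its monoculture level. For ACTA2 this was 10254, 8766 and 8401 normalized counts in LN/PC co-cultures, against 1989.8, 1730.2 and 2346 in fibroblasts, a ratio of 4.52. The ratio was 3.23 for TAGLN, 3.12 for TPM2, 2.28 for MYL9 and 1.42 for CALD1. For LMOD1 the levels were 277, 146 and 289.5 against 543, 476 and 482, a ratio of 0.474. In all 6 genes the groups did not overlap, which gives an exact two-sided permutation p of 0.1, the smallest that 3 against 3 allows. The restricted genes behind the share were chosen for high values in these same fibroblast libraries. Genes outside the list were not counted in this way, so the p is a description only. With the share taken from the summed restricted genes, which averaged 20.9 ± 5.80% (SD, n = 3), the ratios were 2.85 for ACTA2, 2.03 for TAGLN, 1.96 for TPM2, 1.42 for MYL9 and 0.294 for LMOD1, and that of CALD1 turned to 0.893. CNN1 (2.08, exact p = 0.8) and ACTG2 (5.11, exact p = 0.4) were too uneven to order, and without the third library they gave 0.495 and 1.81. TPM1 and MYLK, being lower in fibroblasts, have no such excess. Whether the epithelial cells or the fibroblasts on the membrane changed these genes was not tested, since the RNA of both was sequenced together.

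The remaining smooth muscle and myofibroblast genes showed the same unevenness. Of 25 listed, 17 were measured, and 11 were higher and 5 lower in fibroblasts than in epithelial monocultures, where 28% of all genes were higher and 30.3% lower. In LN/PC co-cultures against LN/PC monocultures 7 were higher and 2 lower, over 7.8% and 4.72% of all genes. Among the higher were SMTN, smoothelin (log2 difference 2.50 ± 0.37, adjusted p = 0.000158), and FHL1, a LIM-domain protein of muscle (1.86 ± 0.34, adjusted p = 0.00135). As a percent of the fibroblast excess, SMTN had 40.1 ± 17.3 and TGFB1I1, a focal adhesion protein also called Hic-5, 40.5 ± 3.32 (SD, n = 3). SYNPO2, myopodin, an actin-binding protein of the Z-disc, had 4.02 ± 1.50, and FHL1 11.1 ± 5.52. SYNPO2, like LMOD1, was therefore below the lower quartile of the restricted genes (7.09%), although both were abundant in fibroblasts grown alone (1989 and 501 normalized counts). HSPB6, a small heat shock protein of smooth muscle, was listed at 0 in all LN/PC monocultures and averaged 127 ± 28.5 in LN/PC co-cultures. It is among the higher genes in both comparisons. It passed the filter on low values only through the LN/PC co-cultures or the fibroblasts, so it had to be higher. JPH2, also among those higher in fibroblasts, passed the filter of that comparison only with the fibroblasts.

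On silk 2 of these 17 genes were called between co-cultures and monocultures, CRYAB and TNS1, over a background of 3.78% called in either direction. CRYAB, the small heat shock protein alpha-B-crystallin, was higher in silk co-cultures, at 152 ± 32.9, than in silk monocultures, at 34.2 ± 8.02 normalized counts (SD, n = 3 each; limma log2 difference 2.13 ± 0.37, adjusted p = 0.00307). It was higher in LN/PC co-cultures as well, at 138 ± 66.2 against 13.3 ± 5.45 in LN/PC monocultures (3.25 ± 0.37, adjusted p = 8.29e-06). The CRYAB means of both co-cultures were alike, and the part of fibroblast RNA in either difference was not tested. TNS1, the focal adhesion protein tensin, was lower in silk co-cultures, at 1449 ± 206 against 2707 ± 177 in silk monocultures (-0.91 ± 0.19, adjusted p = 0.0113). That call was lost without the first (adjusted p = 0.0601) or the third silk co-culture library (0.0825) and with scaling on epithelium-restricted genes (0.0542).

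The non-muscle paralogs of the members build the cytoskeleton of most cells. Of 13 measured, 1 was higher and none lower in LN/PC co-cultures than in LN/PC monocultures, a share near that over all genes. That gene was TPM4, a cytoskeletal tropomyosin (log2 difference 1.37 ± 0.28, adjusted p = 0.00339), with 13156 ± 3686 against 5339.9 ± 2299 normalized counts. The count is sensitive to scaling, and reached 4 when libraries were scaled on epithelium-restricted genes. ACTB averaged 29822 in LN/PC co-cultures and 26202 in LN/PC monocultures, and did not pass. The light chain gene MYL12A (3844 against 3267), the transgelin gene TAGLN2 (1982 against 2131) and the calponin gene CNN3 (2424 against 2469) did not pass either. PALLD, palladin, an actin cross-linker induced in myofibroblasts, was higher by 1.91 ± 0.27 (adjusted p = 0.000107).

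**Figure D4:**
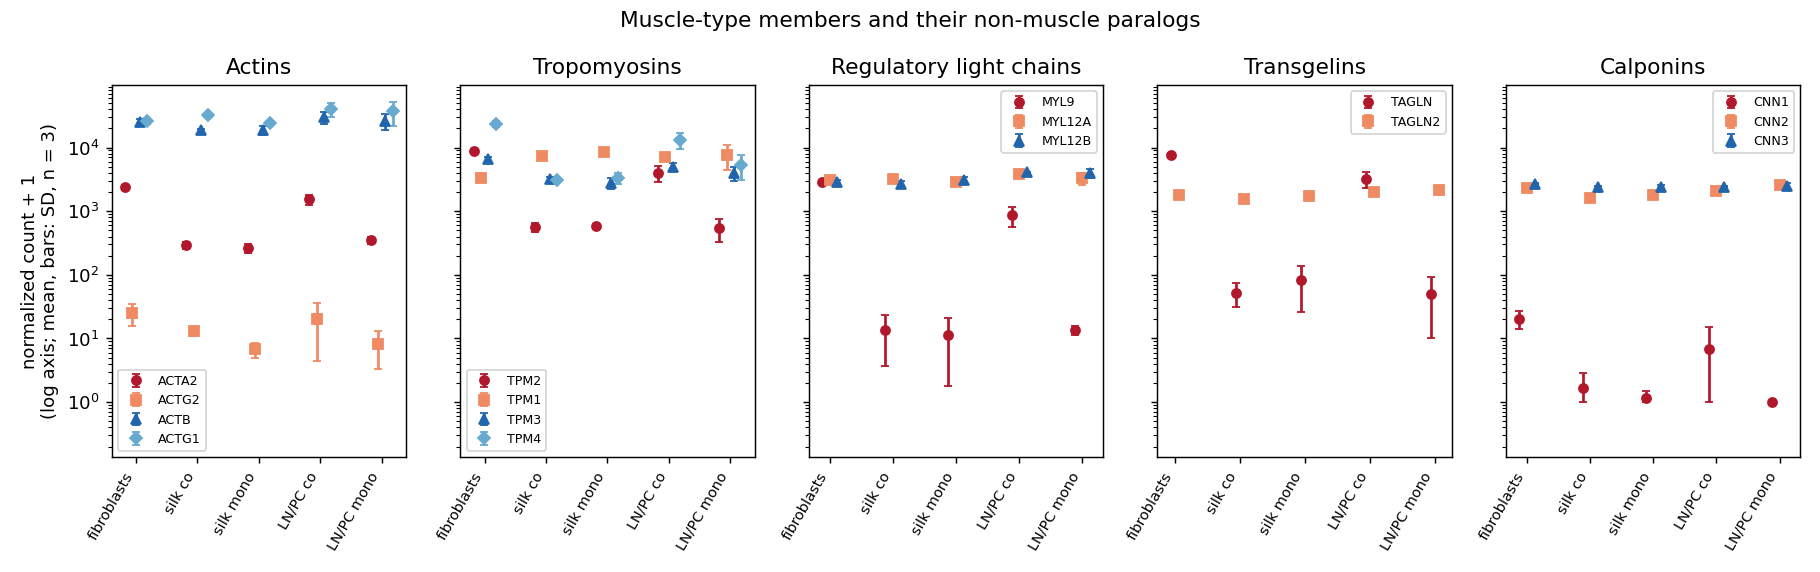
Normalized count plus 1 (log axis) of muscle-type members and their non-muscle paralogs in 5 gene families, by group (means, SD bars, n = 3 each). TAGLN and MYL9 differ widely between fibroblasts and the silk groups, while the group means of TAGLN2, MYL12A and MYL12B lie between 1573 and 4077.

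Of the regulators, SRF, the gene of serum response factor, passed in none of the comparisons and averaged 412 in fibroblasts, 371 in silk co-cultures, 361 without fibroblasts on silk, 246 in LN/PC co-cultures and 272 without fibroblasts on LN/PC. MRTFB, a myocardin-related coactivator, was lower in LN/PC co-cultures, at 177 ± 26.6, than in LN/PC monocultures, at 415 ± 40.5 normalized counts (SD, n = 3 each; limma log2 difference -1.23 ± 0.18, adjusted p = 0.000160). It thus differed in the opposite direction to ACTA2, TAGLN and MYL9 in the same libraries. Of the 11 regulators tested there, 2 were higher and 3 lower, over 7.8% and 4.72% of all genes. The related MRTFA was also lower (-0.76 ± 0.21, adjusted p = 0.0275). PRRX1 was higher (8.87 ± 0.60, adjusted p = 2.63e-08), but it passed the filter only through the LN/PC co-cultures, so it had to differ. KLF4, which represses contractile genes in cultured smooth muscle, was higher in both co-cultures. It averaged 233 ± 21.2 in silk co-cultures against 33.9 ± 13.3 in silk monocultures (2.82 ± 0.35, adjusted p = 0.000175), and 249.7 ± 60.9 in LN/PC co-cultures against 68.2 ± 27.3 in LN/PC monocultures (1.92 ± 0.35, adjusted p = 0.00123). It was also higher in fibroblasts, at 687 ± 92.1. MYOCD, MYH11 and DES, which define mature smooth muscle, were not analysed here.

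Of 15 genes tested that signal to myosin, 1 was higher and none lower in silk co-cultures than in silk monocultures. Over all genes 3.78% were called in either direction. That gene was DAPK3, a kinase that phosphorylates the light chain without calcium. DAPK3 averaged 870 ± 63.2 in silk co-cultures against 450.3 ± 75.5 in silk monocultures (SD, n = 3 each, limma log2 difference 0.96 ± 0.18, adjusted p = 0.00442). It did not pass on LN/PC, and its interaction was 1.17 ± 0.25 (adjusted p = 0.00648). GUCY1A1, a subunit of the nitric oxide receptor that relaxes smooth muscle, was listed at 0 in fibroblasts and averaged 494 in the epithelium alone on silk and 1212 on LN/PC. PRKG1, the kinase downstream of that receptor, was the reverse, at 368 in fibroblasts against 0.508 in silk and 0.315 in LN/PC monocultures.

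Across the 15 libraries the members fell into a fibroblast set and an epithelial pair. Pearson's r of log2 values was 0.97 between ACTA2 and each of TAGLN, MYL9 and TPM2, and 0.93 between TPM1 and MYLK, while that between MYLK and LMOD1 was -0.91. These are descriptions over 5 groups of 3 libraries that share cell line and scaling, and differences between the groups make most of them. Among 11282 genes the most alike were CTSK for ACTA2 (0.994), TWIST2 for TAGLN (0.992), CLEC11A for TPM2 (0.994), CNDP2 for MYLK (0.987) and PLCB4 for TPM1 (0.969).

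In the GENCODE 29 annotation (GRCh38) ACTA2 spans chr10:88935074-88991339 on the minus strand and overlaps FAS and STAMBPL1, and TAGLN spans chr11:117199321-117204782 on the plus strand and overlaps PCSK7. The library kit keeps strand, but whether strand was used in counting is not given in the sources used here, so reads of overlapping genes may be mixed. FAS averaged 1497 in LN/PC co-cultures and 973 in LN/PC monocultures. STAMBPL1 averaged 95.7 and 28.7 in the same groups, and PCSK7 457 and 447. The part of mixed reads in the differences of ACTA2 and TAGLN was not tested. ACTA2 and ACTG2 are near-identical in coding sequence, and the split of reads between them is uncertain, most of all for the scarce ACTG2.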

How the data were processed

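Poly-A RNA of 15 samples was sequenced, and titles gave 5 groups of 3. The submitters' processing notes name Salmon 1.10.3 and DESeq2; the genome build and annotation used are not given in these sources. The deposited values, called normalized counts by the authors, are log2 values, shaped like a variance-stabilizing transformation, and none is below 5.54. Inverting that form, with its lowest value as the 1 constant, gave normalized counts. Each library's median ratio to the geometric mean was then 1.01 over 13121 genes. Per library, 36.0% to 62.3% of low values came within 0.1 of a whole number of reads, too few for a count model. limma-trend (limma 3.58.1, R 4.3.3) was run on log2(value + 1) for genes reaching 10 in 3 or more libraries, tested on simulated data, with Benjamini-Hochberg adjustment and a call under 0.05. The 12 epithelial libraries made 1 fit, and the 9 monoculture libraries another. Intervals and floors cover counting error only. The members and gene lists were chosen with earlier results of these data known. All members are named; of the other lists, up to 4 called genes per comparison with a mean of at least 100, by size, apart from genes named for their level, which were chosen after their values were seen. Alternatives were another constant, no filter, the deposited scale, 3 scalings, other sets of libraries, a replicate block and each library left out.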

Additional observations from a re-analysis of the deposited data

Results flagged for a closer look

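The co-culture difference was not the same on the 2 membranes for 6 of the contractile genes, by the interaction in limma (silk difference minus LN/PC difference, log2). It was -6.76 for TAGLN, -5.74 for MYL9, -4.36 for LMOD1, -3.00 for TPM2, -1.96 for ACTA2 and -1.44 for CALD1. LMOD1 passed the filter on low values only through the LN/PC co-cultures, so its value was fixed by the filter. The fibroblast share moved with these values, at 9.81% to 15.1% in LN/PC co-cultures and 0% to 0.113% in silk co-cultures, and its part in them was not tested.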

How the results depend on the processing

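The 28 member values called in the report kept their direction and their call in the 445 alternatives where the gene was still tested. The highest adjusted p was 0.0431. LMOD1 failed the filter, and was not tested, with any LN/PC co-culture library left out. In the fibroblast comparison LMOD1 and CNN1 were likewise not tested with any fibroblast library left out. Among the 27 not called, scaling on epithelium-restricted genes reversed TPM1 in silk against LN/PC co-cultures (-0.056), TPM2 in silk co-cultures against silk monocultures (0.082), and TPM1 (0.38) and MYLK (0.20) in LN/PC co-cultures against LN/PC monocultures. That scaling moved the median of all genes in the last comparison to 0.37, and equal totals to -0.20. Leaving out 1 library gave, for silk against LN/PC monocultures, -1.31 to 0.12 (MYL9), -0.37 to 0.66 (LMOD1), -0.16 to 0.52 (TPM1), -0.56 to 0.35 (ACTG2) and -0.19 to 0.41 (MYLK). For silk against LN/PC co-cultures it gave -0.013 to 0.17 (TPM1) and -0.82 to 0.25 (ACTG2), for silk co-cultures against silk monocultures -0.51 to 1.11 (MYL9) and -0.20 to 0.044 (TPM2), for LN/PC co-cultures against LN/PC monocultures -0.45 to 0.23 (TPM1) and -0.60 to 0.0081 (MYLK), and for the interaction -0.43 to 0.25 (TPM1) and -0.72 to 0.36 (ACTG2). The causes were not tested. Members higher in silk than in LN/PC co-cultures numbered 1 with equal totals and 1 with the 6 libraries alone. Members lower in LN/PC co-cultures than in LN/PC monocultures numbered 0 to 1 with 1 library left out. The median ratio per unit of fibroblast RNA was 2.70; it was 1.69 with summed markers and 1.97 to 2.98 with 1 LN/PC co-culture library left out. Of 30 same-numbered pairs of libraries 7 had a correlation over 0.1 (-0.36 to 0.30). Pairs with different numbers were not compared, so whether replicate numbers pair the samples is not settled. With the replicate block 6 members were still called higher in LN/PC co-cultures than in LN/PC monocultures, and no member call changed. Differences of scarce genes shrank on other scales: that of LMOD1 in LN/PC co-cultures was 1.83 with 10 added and 0.94 on the deposited log2 values. Depth limits CNN1, ACTG2 and LMOD1 in the epithelial groups, where a library holds a few reads.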
